A study of Mus musculus with 6 samples.

Results

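The 10 genes described here encode the 2 forms of the histone variant H2A.Z (H2az1 and H2az2), 7 factors that place it in chromatin (Srcap, Ep400, Ruvbl1, Ruvbl2, Actl6a, Znhit1 and Vps72) and 1 chaperone that takes it out (Anp32e). They were found by gene symbol in a table of 17971 mouse genes. All 10 were present, and all 10 were among the 14338 genes with enough counts to be tested. The set was put together around H2az2, which was chosen by its measured counts in cKO and Ctrl libraries, where it had already been seen to differ. The values of the comparison between groups are therefore a description of these genes, also where the outcome of the test across all genes is given.

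RNA-seq was done on dorsal root ganglia, which hold sensory neurons and their glia beside the spinal cord, of male E13.5 mouse embryos. The 3 cKO libraries were made from Wnt1-cre+/-;Ybx1fl/fl embryos, in which Cre under Wnt1 control is active in neural crest cells, the source of ganglion neurons and glia. The 3 Ctrl libraries came from Ybx1fl/fl littermates, so both groups carried floxed Ybx1 and only cKO carried Cre. The product of Ybx1, YB-1, is an mRNA-binding protein with a cold-shock domain. Each library held 16464264 to 17446385 estimated counts, and Ybx1 separated the groups, with 809 to 927 CPM (counts scaled to library size) in Ctrl and 108 to 137 in cKO. Ybx1 was not measured by cell type, so which cells held the rest in cKO is not known here. Markers of ganglion cells were abundant: 10 neuron genes summed to 14149 to 14669 CPM in Ctrl and 10 glial genes to 1909 to 2025. Other tissue was present too, with 8 erythroid genes at 2110 to 2923 CPM in Ctrl and 5 connective tissue genes at 1227 to 1486. The 5 spinal cord genes summed to 0.232 to 0.536 CPM in Ctrl. The lists hold genes of unlike levels, so their sums do not measure purity. In cKO the spinal cord sum was 1.15 to 3.91 CPM, above every Ctrl library.

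H2A.Z replaces the core histone H2A in nucleosomes beside active promoters and at enhancers, and it is known for setting how readily genes are switched on. Unlike the core histones, which are made during DNA replication, it is also made and exchanged outside that phase, in dividing progenitors and in neurons alike. The remodelling complexes SRCAP and TIP60/EP400 swap H2A for H2A.Z, and ANP32E strips H2A.Z from nucleosomes. The 2 mouse proteins differ at a few residues and come from separate genes.

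The coding sequences of the H2A.Z genes are shown because the results turn on telling their reads apart. H2az1 (gene identifier 51788) lies on chromosome 3, 137864487 to 137866922, and H2az2 (identifier 77605, older symbol H2afv) on chromosome 11, 6427226 to 6444511, both in GRCm38. The first 300 coding bases of each, from GENCODE M21 transcripts, are given 5′ to 3′ on the coding strand, with capitals at the bases that differ.
H2az1: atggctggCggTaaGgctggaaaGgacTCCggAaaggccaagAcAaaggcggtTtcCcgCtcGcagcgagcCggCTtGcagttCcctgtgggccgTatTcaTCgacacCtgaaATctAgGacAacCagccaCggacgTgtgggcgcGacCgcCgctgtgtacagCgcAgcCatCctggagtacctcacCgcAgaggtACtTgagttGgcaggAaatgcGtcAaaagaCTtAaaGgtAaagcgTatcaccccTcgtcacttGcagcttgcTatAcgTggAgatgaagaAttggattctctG
H2az2: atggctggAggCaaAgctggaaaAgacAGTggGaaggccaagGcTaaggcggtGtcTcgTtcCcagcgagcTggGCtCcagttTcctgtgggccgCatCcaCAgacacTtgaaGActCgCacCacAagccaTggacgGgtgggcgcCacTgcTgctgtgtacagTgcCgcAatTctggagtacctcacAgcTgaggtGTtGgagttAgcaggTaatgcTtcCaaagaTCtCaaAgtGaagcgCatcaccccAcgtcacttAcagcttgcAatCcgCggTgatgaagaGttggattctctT
Over the whole coding sequence of 387 bases 306 were the same (79.1%), and 70 of the 81 differences fell at the third base of a codon. The longest run shared by the 2 transcripts, untranslated ends included, was 14 bases. No other annotated gene held a run of 50 bases of the H2az2 coding sequence. By contrast, 4 annotated pseudogenes held such a run of H2az1. The deposited estimated counts of H2az1 and H2az2 were whole numbers in all 6 libraries, whereas those of Ruvbl2 were whole in 1. Whole counts were the rule, with 88.4% to 88.6% of all genes in each library. They do not tell whether reads of the pseudogenes were counted under H2az1.

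Levels in TPM, which are scaled for transcript length, set H2az1 above every exchange factor. In Ctrl the order of mean TPM was H2az1 (412 ± 23.1, SD, n = 3), Znhit1 (161 ± 11.1), Vps72 (102 ± 9.18), Anp32e (88.2 ± 8.00), Ruvbl2 (88.1 ± 2.54), H2az2 (73.8 ± 5.32), Actl6a (55.4 ± 2.66), Ruvbl1 (52.2 ± 1.40), Srcap (26.0 ± 3.44) and Ep400 (22.0 ± 2.75). The Ctrl ranges of neighbours in that order overlapped for Vps72 and Anp32e, for Anp32e and Ruvbl2, for Actl6a and Ruvbl1, and for Srcap and Ep400. The ATPases that drive the exchange complexes, Srcap and Ep400, thus had the lowest transcript levels of the set. In cKO H2az2 moved from place 6 to place 8 of this order, below Actl6a and Ruvbl1.

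**Figure D1:**
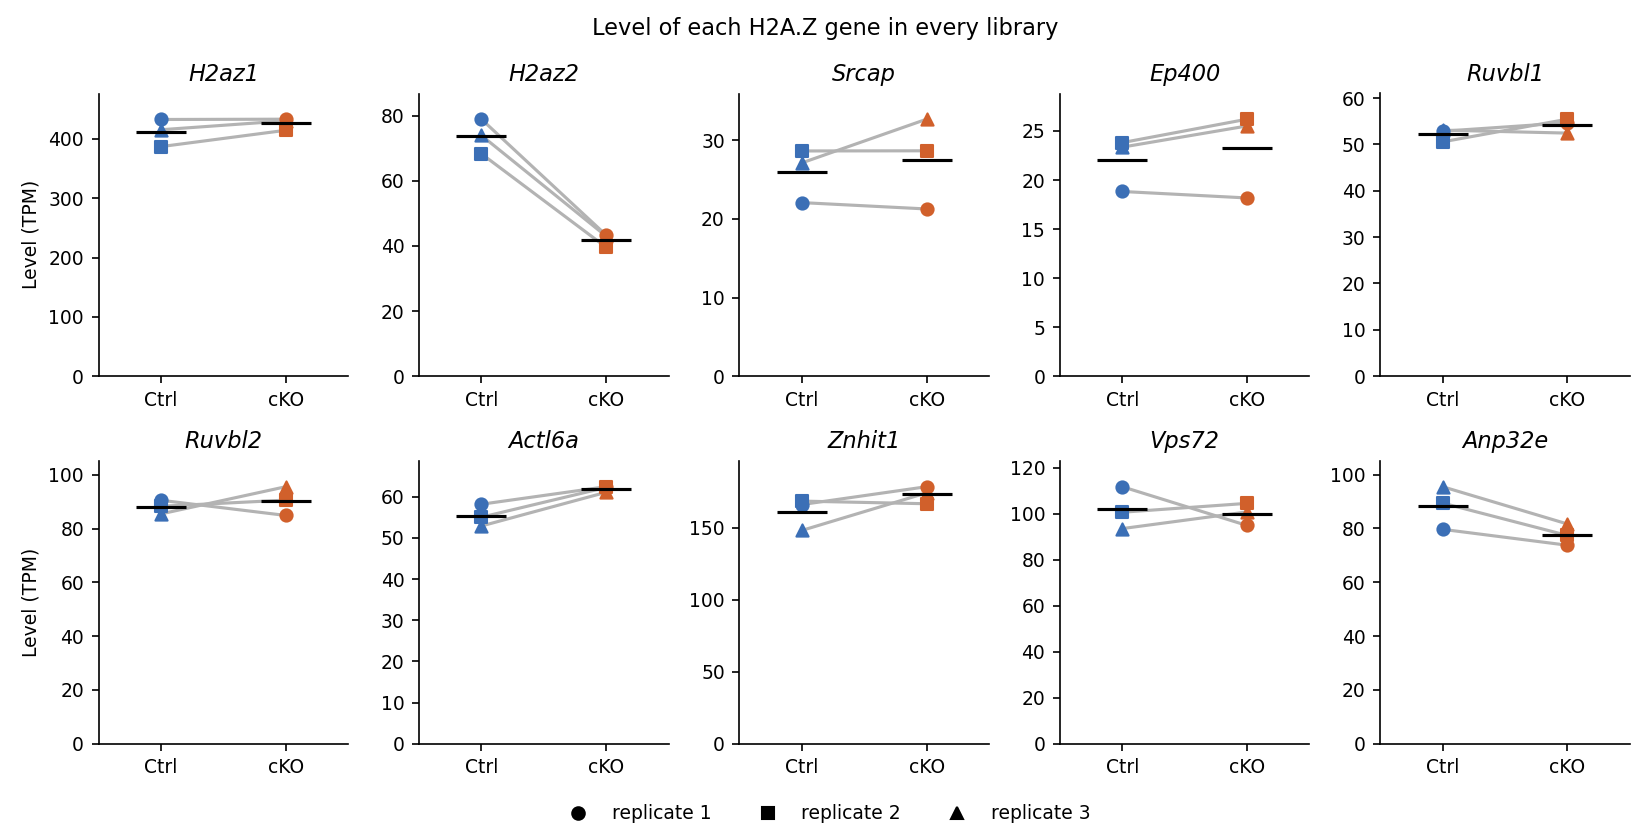
Level in TPM (vertical axes, each from 0) of the 10 genes in Ctrl and cKO; symbols are single libraries, grey lines join libraries with the same replicate number, and black bars are group means. H2az2 lay at 68.3 to 79.0 in Ctrl and 39.6 to 43.3 in cKO, while the groups overlapped or lay close together for the other genes.

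H2az2 had the largest difference of the 10 genes and was lower in cKO. It stood at 79.0, 68.3 and 74.0 TPM in Ctrl replicates 1, 2 and 3, and at 43.3, 39.6 and 43.0 TPM in the same-numbered cKO libraries. Every cKO library lay far below every Ctrl library, and the groups did not come near each other. Behind these levels stood 847 to 1090 estimated counts per Ctrl library and 493 to 611 per cKO library. In CPM the means were 56.3 ± 6.53 in Ctrl and 31.7 ± 3.26 in cKO (SD, n = 3), and the edgeR log2 fold change was -0.83 (SE 0.10), or 56.3% of the Ctrl level with a 95% interval of 48.4% to 65.5%. Same-numbered libraries differed by -0.84, -0.81 and -0.82 on the log2 CPM scale, so the difference was nearly the same size in each of the 3 pairs. H2az2 was among the 53 genes called lower, where 0.370% of all genes tested were called lower and 0.481% were called in either direction. Since the gene was chosen for this difference, nothing is read from that call.

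The Cre line bears directly on H2az2. The RefSeq gene table of GRCm38.p6 lists Tg(Wnt1-cre)11Rth and Wnt1-Cre among the synonyms of H2az2, because that widely used Wnt1-Cre transgene is known to sit in the H2az2 locus. The labels give the driver as Wnt1-cre without naming the line. Wnt1, a signalling gene of the dorsal neural tube, had 0 estimated counts in each of the 3 Ctrl libraries and 34, 20 and 27 in cKO replicates 1, 2 and 3. Transcripts of a transgene that carries Wnt1 sequence and those of Wnt1 itself cannot be told apart in these counts, and the spinal cord sum was also higher in cKO. All cKO embryos carried Wnt1-cre, no Ctrl embryo did, and no group had Wnt1-cre with intact Ybx1. For H2az2, an effect of a transgene inserted in the gene and an effect of losing Ybx1 cannot be told apart in these data.

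Genes around H2az2 were read out for the same reason, in a window of 150 kb to either side chosen with the results known. The window held 6 tested genes, none of them called (edgeR). From low to high coordinates these were Ogdh (log2 fold change 0.00, SE 0.08), Zmiz2 (-0.16, SE 0.09), Ppia (-0.07, SE 0.09), Purb (-0.21, SE 0.06), Myo1g (0.49, SE 0.35) and Ccm2 (0.08, SE 0.09). Purb, a gene for a single-strand DNA and RNA binding protein, starts 23.1 kb beyond the 5′ end of H2az2. Purb was the 1 neighbour of the 6 whose groups did not overlap in CPM, where those of 16.6% of all genes tested did not. It held 87.1, 94.0 and 92.3 CPM in Ctrl and 77.1, 78.1 and 80.4 in cKO. With the replicate number as a block Purb passed as lower (edgeR adjusted p 0.0245), where 3.56% of all genes tested were called lower. Purb did not pass in that model without the libraries numbered 2 (log2 fold change -0.19, edgeR adjusted p 0.330). Myo1g was under 1 CPM in every library.

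**Figure D2:**
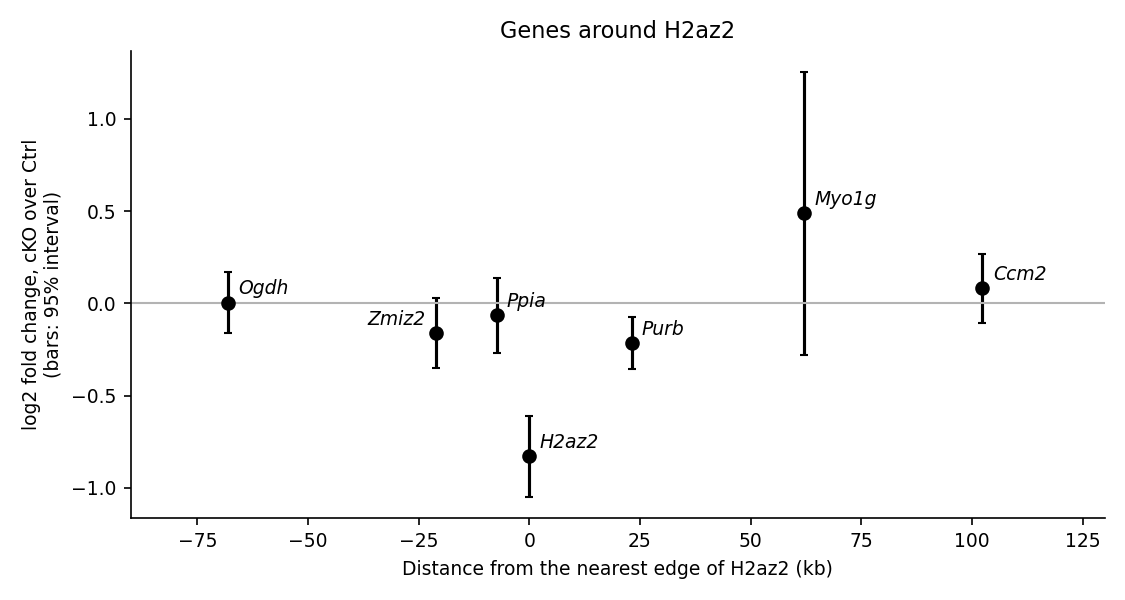
Log2 fold change, cKO over Ctrl (vertical axis; bars are 95% intervals), of H2az2 and the 6 tested genes within 150 kb, by distance in kb from the nearest edge of H2az2 (horizontal axis; positive values lie on the 5′ side of the gene). H2az2 stands at -0.83, and the neighbours lie between -0.21 and 0.49.

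H2az1, the main source of H2A.Z in number of transcripts, did not pass the test. It held 433, 387 and 416 TPM in Ctrl replicates 1 to 3 and 433, 415 and 431 TPM in cKO. The ranges overlapped. Its edgeR log2 fold change was 0.03 (SE 0.09, adjusted p 0.940), with a 95% interval of -0.16 to 0.23. On the linear scale that interval, not adjusted for the number of genes, runs from 89.5% to 117% of the Ctrl level.

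The share of H2A.Z transcripts that came from H2az2 was lower in every cKO library. In Ctrl replicates 1, 2 and 3 H2az2 made up 15.4%, 15.0% and 15.1% of the summed TPM of both genes. In cKO it made up 9.09%, 8.72% and 9.08%. The cKO mean minus the Ctrl mean was -6.22 percentage points, with SDs of 0.221 in Ctrl and 0.210 in cKO (n = 3). H2az1 thus outnumbered H2az2 by 5.59 to 1 on average in Ctrl and by 10.2 to 1 in cKO. The summed level of both genes was 486 ± 28.4 TPM in Ctrl and 468 ± 12.1 TPM in cKO (SD, n = 3), with overlapping ranges of 455 to 512 and 454 to 477.

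**Figure D3:**
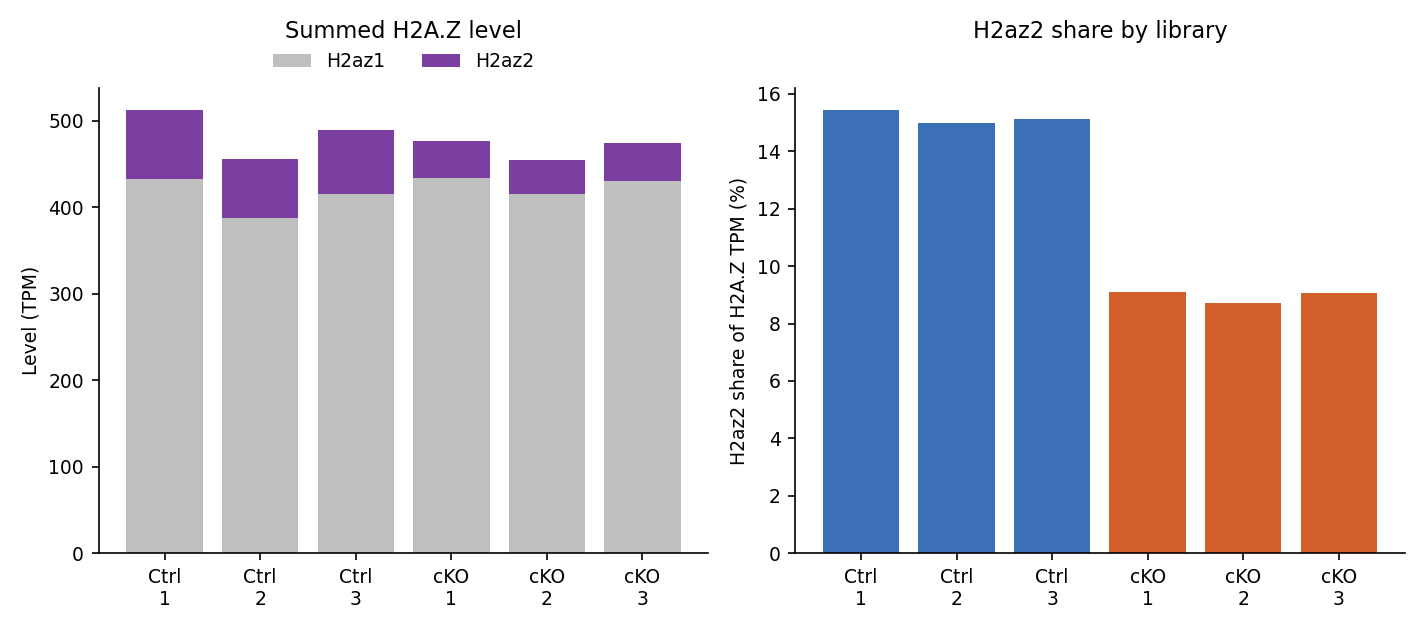
Left, TPM of H2az1 (grey) and H2az2 (purple) stacked for each library; right, H2az2 as a percentage of the summed TPM. The summed bars overlap between groups, while the share is 15.0% to 15.4% in Ctrl and 8.72% to 9.09% in cKO.

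The 7 factors of H2A.Z placement did not pass the test, and their groups overlapped in CPM in every case. Of all genes tested, 0.481% were called, or 5.33% with the replicate block, and the groups of 16.6% did not overlap. Most genes thus did as these 7 did. Their edgeR adjusted p ran from 0.600 to 0.964, and from 0.143 to 0.895 with the replicate block. The 95% intervals, not adjusted for the number of genes, allowed levels in cKO between 84.5% and 126% of Ctrl. Log2 fold changes were positive for 6 of the 7.

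Srcap (chromosome 7, 127511983 to 127561219), the ATPase of the SRCAP complex, held 22.1, 28.7 and 27.1 TPM in Ctrl and 21.3, 28.7 and 32.7 in cKO. Ep400 (chromosome 5, 110664373 to 110770927), the ATPase of the TIP60/EP400 complex, held 18.8, 23.8 and 23.4 TPM in Ctrl and 18.2, 26.2 and 25.5 in cKO. For both genes, the libraries numbered 1 were the lowest of their group, whatever the genotype. Their log2 fold changes were 0.07 (SE 0.11) for Srcap and 0.06 (SE 0.10) for Ep400.

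Ruvbl1 and Ruvbl2 encode partner AAA+ ATPases that form a ring in both exchange complexes and also serve other assemblies. Ruvbl1 (chromosome 6, 88465409 to 88497566) ranged from 50.6 to 53.1 TPM in Ctrl and from 52.5 to 55.5 in cKO. Ruvbl2 (chromosome 7, 45421896 to 45436171) ranged from 85.5 to 90.5 TPM in Ctrl and from 84.9 to 95.6 in cKO. Ruvbl2 was the higher of the partners in every library. Their log2 fold changes were 0.04 (SE 0.08) and 0.02 (SE 0.07).

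Actl6a (chromosome 3, 32708546 to 32726973) encodes an actin-related protein shared by the exchange complexes and by the BAF remodeller of progenitor cells. It held 58.2, 55.0 and 52.9 TPM in Ctrl and 62.5, 62.3 and 61.1 in cKO. On this TPM scale every cKO library was above every Ctrl library. On the CPM scale used for the test the groups overlapped, at 49.6 to 58.5 in Ctrl and 55.7 to 64.0 in cKO, and each cKO library exceeded its same-numbered Ctrl library, by 0.13, 0.15 and 0.17 on the log2 scale. The log2 fold change was 0.15 with an SE of 0.08. The gene did not pass (edgeR adjusted p 0.600, or 0.143 with the replicate block).

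Znhit1 and Vps72 encode SRCAP subunits, of which Vps72 binds H2A.Z itself. Znhit1 (chromosome 5, 136982194 to 136987959) held 148 to 169 TPM in Ctrl and 167 to 179 in cKO, with a log2 fold change of 0.08 (SE 0.08). Vps72 (chromosome 3, 95111042 to 95123051) held 93.5 to 112 TPM in Ctrl and 94.9 to 104 in cKO, with a log2 fold change of -0.05 (SE 0.09). The pairs of Vps72 went both ways, at -0.21, 0.03 and 0.06 on the log2 CPM scale.

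Anp32e, the gene of the chaperone that removes H2A.Z, was the only other member whose groups did not overlap in CPM. It lies on chromosome 3, 95929245 to 95947387. It held 141, 146 and 158 CPM in Ctrl replicates 1 to 3 and 133, 125 and 131 CPM in cKO. All cKO libraries lay below all Ctrl libraries on this scale, but in TPM cKO replicate 3, at 81.7, was above Ctrl replicate 1, at 79.7. The log2 fold change was -0.19 (SE 0.07, edgeR adjusted p 0.310), or 87.4% of the Ctrl level, and the gene did not pass. With the replicate block it passed as lower (log2 fold change -0.19, edgeR adjusted p 0.0412). In that model the adjusted p was 0.000639 without the libraries numbered 1, 0.378 without those numbered 2, 0.133 without those numbered 3 and 0.0744 when scaled by library totals. The pairs differed by -0.09, -0.23 and -0.26 on the log2 scale.

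**Figure D4:**
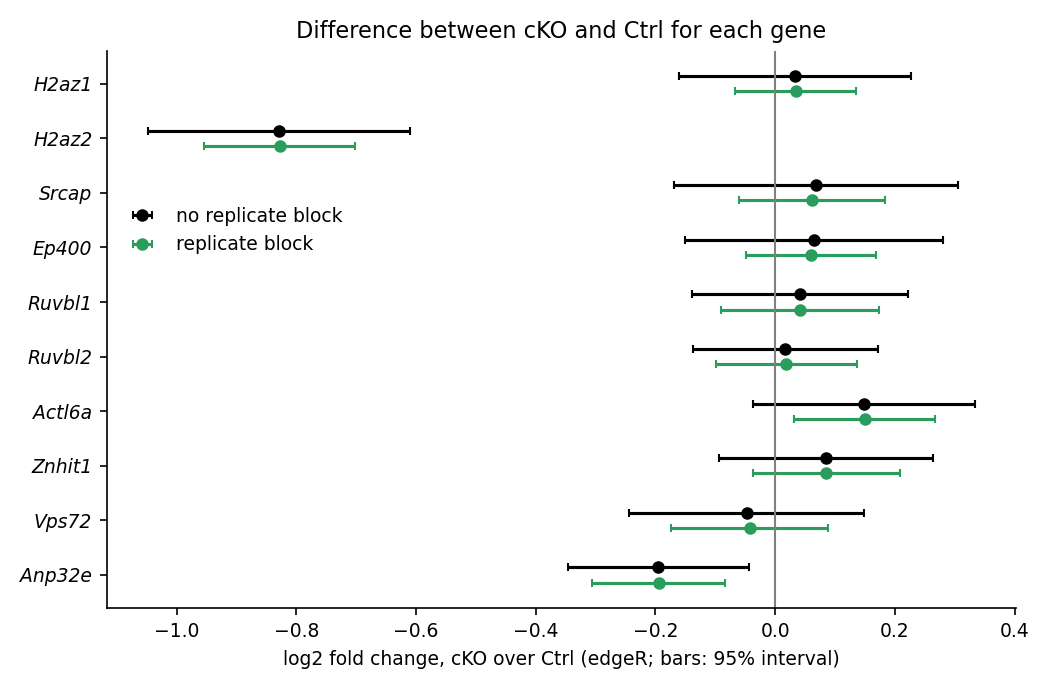
Log2 fold change, cKO over Ctrl (horizontal axis), of the 10 genes from edgeR without the replicate block (black) and with it (green); bars are 95% intervals, not adjusted for the number of genes. H2az2 stands apart at -0.83, Anp32e is at -0.19, and the other 8 lie between -0.05 and 0.15.

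Counted together, 1 of the 10 genes was called lower and none higher (edgeR; 0.481% of all genes tested were called). With the replicate block 2 of 10 were lower and none higher, where 5.33% of all genes were called, 3.56% as lower and 1.76% as higher. Groups did not overlap in CPM for 2 of 10, both lower in cKO, against 16.6% of all genes, 8.77% with cKO lower. The median log2 fold change of the 10 was 0.04, and that of all genes tested 0.00.

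Related chromatin genes were read beside the members. Of 55 such genes in 9 lists, none was called (edgeR), where 0.481% of all genes tested were. With the replicate block 1 of the 55 was higher and 1 lower, where 1.76% of all genes tested were higher and 3.56% lower. The median log2 fold change of the 55 was 0.02, with 30 of 55 positive.

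Other H2A variants were not called, with or without the block. Of the 4, the most abundant were Macroh2a1, of the large macroH2A (log2 fold change -0.04, SE 0.07), and Macroh2a2 (-0.14, SE 0.07). H2ax, which marks DNA breaks when phosphorylated, had 63.3 mean CPM in cKO and 72.5 in Ctrl (log2 fold change -0.20, SE 0.11; by edgeR, adjusted p 0.600, or 0.0674 with the block). H2aj completed the list at 0.09 (SE 0.09).

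None of the 14 other subunits of SRCAP and TIP60 was called, and their log2 fold changes lay between -0.13 and 0.08, with a median of -0.01. Morf4l1 and Morf4l2 were the most abundant, at 0.06 (SE 0.08) and 0.08 (SE 0.07). The 12 genes of INO80, a related remodeller, had a median of 0.04 and no call, with Mcrs1 at -0.07 (SE 0.07) and Actr8 at 0.10 (SE 0.07). The replacement histone genes H3f3a (0.07, SE 0.10), H3f3b (-0.03, SE 0.08) and H1f0 (0.04, SE 0.06) were not called.

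Among 10 histone chaperones 9 had positive log2 fold changes and none was called (median 0.08). The most abundant were Npm1 (log2 fold change 0.05, SE 0.08) and Nap1l1 (0.07, SE 0.07). The relatives of Anp32e, Anp32a and Anp32b, which do not share its role with H2A.Z, had log2 fold changes of 0.10 (SE 0.07) and 0.16 (SE 0.07), where Anp32e had -0.19. Neither relative was called in either model.

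Of 3 genes for proteins found on H2A.Z nucleosomes, Brd2, a bromodomain protein, was called higher in the blocked model, where 1.76% of all genes tested were. Its log2 fold change there was 0.19 (SE 0.05, edgeR adjusted p 0.0381), and it did not pass without the block (edgeR adjusted p 0.339). It held 247, 246 and 234 CPM in Ctrl and 258, 287 and 287 in cKO. The blocked call was lost without the libraries numbered 2 (adjusted p 0.359) or 3 (0.155). Pwwp2a had a log2 fold change of -0.04 (SE 0.08).

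Genes that share Actl6a or the RUVBL ring with other complexes were read beside them. Rpap3 and Pih1d1, of the R2TP assembly that uses RUVBL1 and RUVBL2, had log2 fold changes of -0.01 (SE 0.08) and -0.04 (SE 0.07). Actl6b, the neuronal replacement of Actl6a in BAF, held 73.1, 66.4 and 58.9 CPM in Ctrl and 56.2, 57.1 and 53.2 in cKO. Its groups did not overlap, where those of 16.6% of all genes tested did not. Among related genes named here, the same held for Macroh2a2 and Ss18, lower in cKO. It also held for Actr8, Nap1l1, Anp32a, Anp32b and Brd2, higher in cKO. Actl6b was lower with the block (log2 fold change -0.25, SE 0.06, edgeR adjusted p 0.0221), where 3.56% of all genes tested were. It did not pass without the block (edgeR adjusted p 0.261). In the blocked model the call was lost without the libraries numbered 1 (adjusted p 0.0717) or 2 (0.126). The other 3 neuronal BAF genes and the 3 progenitor BAF genes were not called, with Dpf2 at 0.02 (SE 0.06) and Ss18 at -0.09 (SE 0.06).

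**Figure D5:**
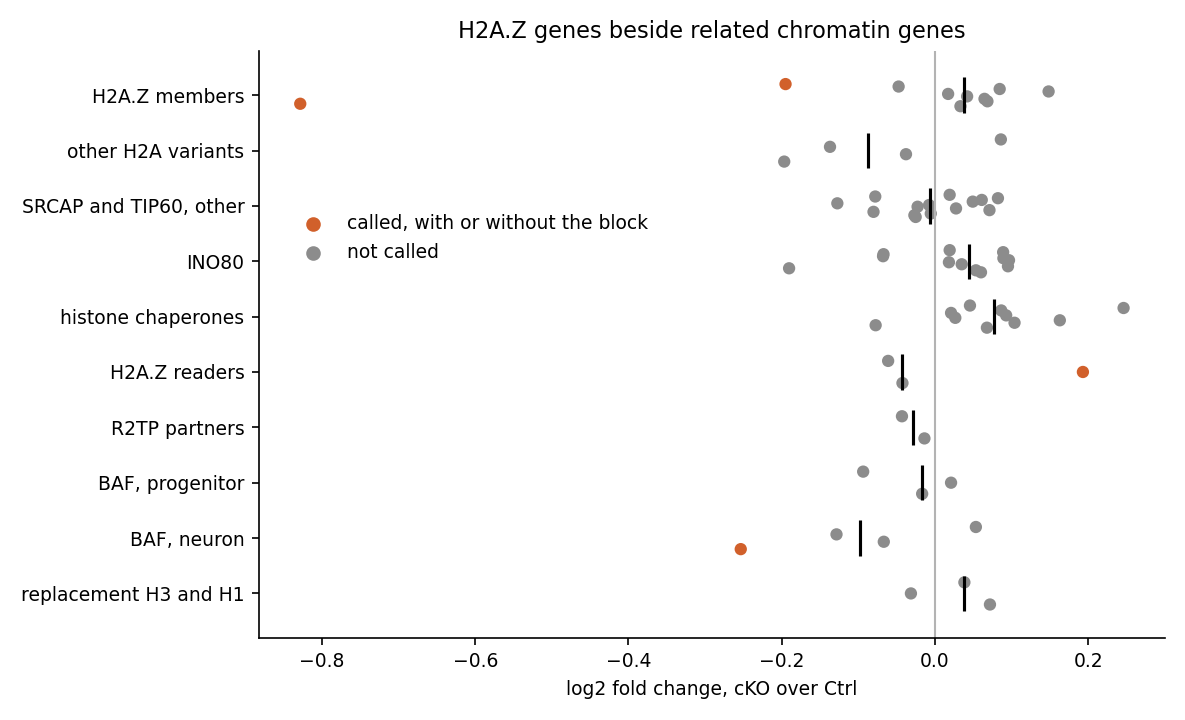
Log2 fold change, cKO over Ctrl (horizontal axis), of the 10 H2A.Z genes and 55 related chromatin genes by list (rows); each point is a gene, black bars are list medians, and orange marks genes called with or without the replicate block. H2az2 lies alone at -0.83, and all 55 related genes lie between -0.25 and 0.25.

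The make-up of the ganglia could move any of these levels, and in whole tissue fewer cells of a type and less RNA per cell cannot be told apart. Cycling cells, which make much H2A.Z, showed no called gene among 10, and these genes summed to 587 to 652 CPM in Ctrl and 613 to 667 in cKO. Neuron genes summed to 13929 to 14622 CPM in cKO; none of 10 was called without the block, and 2 (Stmn2 and Isl1) were lower with it, where 3.56% of all genes were. Glial genes summed to 2015 to 2066 CPM in cKO; none of 10 was called without the block, and 6 (among them Sox10, Mbp, S100b and Cdh19) were higher with it, where 1.76% of all genes were. Macrophage genes summed to 111 to 129 CPM in Ctrl and 134 to 193 in cKO, and all 10 had positive log2 fold changes (median 0.43). Of these, 1 was called higher (Mpeg1, log2 fold change 0.82, edgeR adjusted p 0.0446; 0.112% of all genes were called higher) and 2 with the block (Mpeg1 and C1qb). Erythroid genes summed to 2110 to 2923 CPM in Ctrl and 1704 to 6602 in cKO, with no call in either model. The highest was cKO replicate 1, without which the log2 fold change of H2az2 was -0.91. Of the 5 spinal cord genes only Pax6 had enough counts to be tested, and it was called higher, from a mean of 0.199 CPM in Ctrl to 0.892 in cKO (log2 fold change 2.12, SE 0.39, edgeR adjusted p 0.0449). In cKO replicate 3, Lhx1, Pax2 and Lbx1 stood at 1.52, 0.991 and 0.525 CPM, against at most 0.119 in any other library. Olig2, the remaining gene of the list, stood at 0 CPM in cKO replicate 3 and at most at 0.119 elsewhere. Without that library the log2 fold change of H2az2 was -0.82. The part of the neuron, glial, macrophage, erythroid and spinal cord differences in the H2A.Z values was not tested. Leaving out a library does not test it, since every cKO library lay below every Ctrl library for H2az2.

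Genes whose values over the 6 libraries lay closest to those of H2az2 were found by the root mean square difference of log2 CPM after each gene was centred on its mean, among 11884 genes with at least 5 CPM on average. The closest were Serpina3g, a serine protease inhibitor gene (root mean square difference 0.11), Dio3, a thyroid hormone deiodinase gene (0.13), and Nsg2, a neuronal vesicle protein gene (0.14). Their log2 fold changes were -0.76, -0.73 and -0.69, against -0.83 for H2az2. Because H2az2 was chosen for its difference between groups, genes with a like difference come first by construction.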

How the data were processed

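Total RNA was extracted with Trizol and made into mRNA libraries, per the labels' protocols; strandedness is not stated there. The authors deposited estimated counts, TPM and FPKM per gene and library with their group means; HISAT2 2.2.1, Bowtie2 2.4.5, RSEM 1.3.1 and GRCm38 (mm10) are named, without role, per the submitters' processing notes. FPKM values the authors deposited served only as an alternative for the H2az2 share, and the group means were not used.

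Counts (16464264 to 17446385 per library) were rounded; filterByExpr kept 14338 of 17971 genes. The main test was the two-sided robust quasi-likelihood test of edgeR 4.0.16 in R 4.3.3, with TMM scaling, Benjamini-Hochberg adjustment over all genes tested, and a threshold of 0.05. SEs come from the fold change and its F statistic, and 95% intervals use the t distribution with the fit's degrees of freedom. CPM uses TMM library sizes. The test was checked on simulated counts with no effect of replicate number and with larger differences than all members but H2az2 showed. That check does not bear on small differences that did not pass. TPM served to compare genes, to give levels of single libraries in both groups, and for the H2az2 share and summed level. Tests between groups rest on counts, shown as CPM.

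After group means were subtracted, libraries that share a number correlated at 0.33, 0.21 and 0.18 over 14338 genes. The controls are described as littermates, so the numbers were taken to pair samples. Correlations of libraries with different numbers were not computed, so these values alone do not establish the pairs. The block was kept as an alternative because the study states no paired model. That choice weighs on the calls, with 69 genes called without the block and 764 with it. Members, lists and window were chosen with earlier results of these data known. The text names all 10 members; of each list it names the genes called in either model, or else the 2 with the highest TPM. Exceptions were named to complete a list, to compare the relatives of Anp32e, or after their values were seen. They are H2ax, H2aj, H1f0, Pwwp2a, Anp32a, Anp32b, Wnt1, Lhx1, Pax2, Lbx1, Olig2 and the genes around H2az2. Some called marker genes are not reported here by name. Alternatives were DESeq2 1.42.0 size factors and test, library totals, limma-voom (limma 3.58.1), the replicate block, no filter, and omission of each library or replicate number. Blocked models without a replicate number or with other scalings were added after seeing the data. Coordinates and synonyms are from RefSeq (GRCm38.p6), and coding sequences from GENCODE M21. Marker lists for muscle, endothelial and connective tissue cells held no called gene in either model.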

Additional observations from a re-analysis of the deposited data

How the results depend on the processing

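H2az2 kept its direction under all 20 alternatives, with log2 fold changes from -0.91 to -0.73, and was called in all but 1. Without both libraries numbered 3 it was -0.83 and not among the 2 genes called. H2az2 was chosen for this difference, and every cKO library lay below every Ctrl library. Leaving libraries out thus could not reverse its direction, and nothing is read from these calls. The number of members called was 2 with the replicate block, 2 without both libraries numbered 1, 0 without both numbered 3, 2 in the blocked model without both numbered 1, and 2 in the blocked model with DESeq2 size factors; it was 1 on leaving out any single library. The number of all genes called, 69, was 44 with library totals, 183 with the DESeq2 test, 128 with no filter, 764 with the replicate block, 731 without both libraries numbered 1, 8 without both numbered 2 and 2 without both numbered 3. In blocked models it was 1252, 260 and 836 without the libraries numbered 1, 2 and 3, 731 with DESeq2 size factors and 799 with library totals; leaving out single libraries gave 18 (without Ctrl replicate 3) to 104 (without cKO replicate 1). The difference in H2az2 share was -9.06 percentage points from counts not scaled for length, against -6.22 from TPM, and -6.31 to -6.10 on leaving out single libraries.

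Members with log2 fold changes near 0 changed sign. Without both libraries numbered 1 Vps72 was 0.047, and 0.047 in the blocked model too. Without both numbered 3 Srcap was -0.025 and Ruvbl2 -0.028, and in the blocked model they were -0.026 and -0.027. Over single libraries left out, the ranges were -0.039 to 0.11 for H2az1, -0.047 to 0.18 for Srcap, -0.0018 to 0.17 for Ep400, -0.023 to 0.090 for Ruvbl1, -0.016 to 0.075 for Ruvbl2 and -0.12 to 0.065 for Vps72. None of these was called under any alternative, and the cause was not tested.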
